A study of Gossypium hirsutum and Gossypium barbadense with 16 samples.

Results

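The epidermal layer of the GhTM-1 ovule was followed from 0 to 2 DPA (days post anthesis). GhTM-1 is a wild-type accession, TM-1, of Upland cotton (*G. hirsutum*). The comparison set the 2 epidermal libraries of 2 DPA against the 2 epidermal libraries of 0 DPA, 4 of the 16 libraries of the study, over all 75376 genes of the GhTM-1 table. It asked which genes of the ovule surface changed their mRNA level while fiber cells emerged. Cells were isolated by laser-capture microdissection (LCM), each stage as 2 biological replicates from greenhouse plants, with no treatment. At 0 DPA the top cell layer was taken, so these samples hold the fiber initials together with their neighbours. At 2 DPA the protruding fibers were cut away first and the layer beneath was then collected. The change of stage and the removal of the fibers therefore cannot be told apart, and in such samples fewer cells of a type and less RNA per cell cannot be told apart either. Comparison groups, also of 2 libraries each and with no treatment, were the fibers of GhTM-1 at 2 DPA, epidermal cells of the fiberless mutant GhMD17 (*G. hirsutum* background) at 0 and 2 DPA, and epidermal and fiber cells of the wild-type Pima cotton Gb3-79 (*G. barbadense*) at the same stages. In GhMD17, which forms no fibers, the top layer was taken at both stages.

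Cotton fibers are single, unbranched cells that grow out of the epidermis of the outer integument of the ovule, beginning around the day of anthesis. Initiation depends on MYB transcription factors such as GhMYB25, a relative of the MIXTA proteins that shape epidermal cells in snapdragon petals, and on auxin, to which cells respond through auxin response factors (ARFs). The cells that stay in the epidermal layer form the seed surface and a cuticle. The deposited tables identify genes by Gohir IDs, which carry the subgenome (A or D) and chromosome but are not paired with gene names. Only the ARF and MYB genes drawn by the study have names here, and no function is given for any other gene.

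Expression is given in FPKM, a fragment number set relative to transcript length and library size. The 10 *G. hirsutum* libraries summed to 720874 to 947668 FPKM, and 36504 to 38386 genes exceeded 1 FPKM in a GhTM-1 epidermal library. The log2(FPKM + 1) values of the replicates correlated across genes, which are not independent replicates, with r = 0.93 at 0 DPA and r = 0.92 at 2 DPA. For GhTM-1, 21541 genes were listed at 0 in all 4 epidermal libraries. Exact zeros beside high values occurred, since 53 genes had over 100 FPKM in one replicate of a stage and 0 in the other, and 0 of these 53 were called. The 6 fiber markers, MYB106, MYB66, MYB96 and ARF19a genes chosen on these samples, summed to 354 and 458 FPKM in the 0 DPA epidermal libraries, 297 and 298 FPKM at 2 DPA, and 517 and 512 FPKM in fiber. The 2 MYB106 genes made up 89.5% to 96.9% of this sum in GhTM-1, and of the other 4 markers the MYB66 gene Gohir.A05G359100 and MYB96, described below, were higher at 2 DPA than at 0 DPA without overlap. In GhMD17 the same sum was 16.5 to 38.9 FPKM. The 8 markers of the layer beneath the fibers, also chosen on these samples, summed to 139 and 152 FPKM at 0 DPA, 161 and 212 FPKM at 2 DPA, and 71.2 and 66.1 FPKM in fiber. The fiber marker sum of a 2 DPA epidermal library was thus 57.4% to 58.1% of that of a fiber library, and the part of these markers in the results below was not tested.

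More genes were called higher than lower at 2 DPA, although most tested genes had a negative change. Of 42736 genes tested, 392 (0.917%) were higher and 154 (0.36%) were lower at 2 DPA, by limma at an adjusted p under 0.05 with a ratio of mean FPKM over 2 and a mean over 1 FPKM in the higher stage. Together they were 1.28% of the genes tested. At an unadjusted P under 0.01 with the same limits, 911 (2.13%) and 694 (1.62%) passed. The typical tested gene changed little, with a median log2 change of -0.08, and positive changes made up 42.3% of all genes tested. Among the upregulated genes the median ratio of 2 to 0 DPA was 5.67, with quartiles of 3.51 and 14.2 over the 373 genes that were above 0 at 0 DPA. In 130 genes the ratio exceeded 10, and in 114 genes both 0 DPA libraries were under 1 FPKM. The down-regulated genes had a median ratio of 0 to 2 DPA of 5.17, with quartiles of 3.35 and 11.8 over 133 genes, and 42 exceeded a ratio of 10. High expression was found in both sets, since 42 upregulated genes averaged over 100 FPKM at 2 DPA and 25 down-regulated genes did so at 0 DPA. In every called gene the libraries of the stages did not overlap, which follows largely from the choice of these genes on the same libraries. Of all tested genes, 17.2% were higher and 24.2% lower without overlap at 2 DPA.

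The number of calls changed when any of the 4 libraries was left out. Such a fit leaves a single library at one stage and less data for the spread. The part of each library was therefore not separated from this loss. Leaving out 0 DPA replicate 1 gave 161 upregulated and 74 down-regulated genes, and leaving out 0 DPA replicate 2 gave 244 and 177. Without 2 DPA replicate 1 there were 118 and 30, and without 2 DPA replicate 2 there were 217 and 137. Of the 392 upregulated genes, 96 were called in all 4 of these reduced fits and 119 in none, and of the 154 down-regulated genes 14 were called in all 4 and 56 in none. The spread was estimated from all 10 *G. hirsutum* libraries, and with the 4 GhTM-1 epidermal libraries alone 28 and 9 genes were called.

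**Figure D1:**
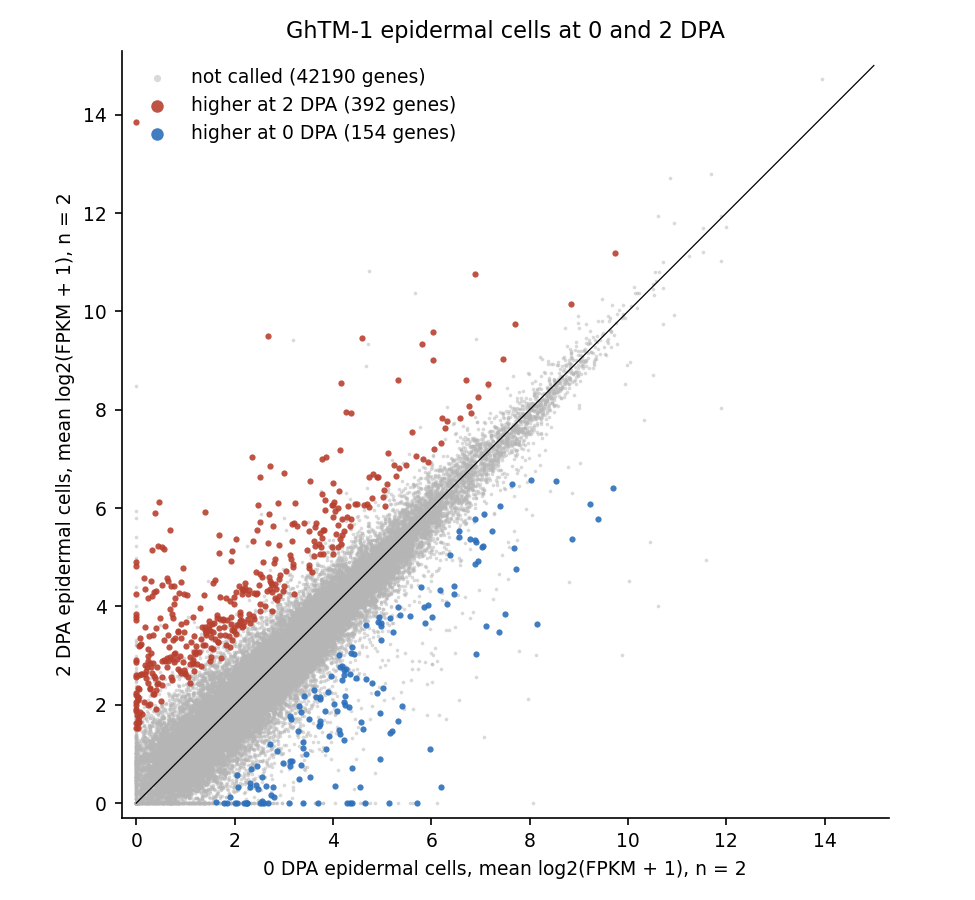
Mean log2(FPKM + 1) of the 2 GhTM-1 epidermal libraries at 0 DPA (x axis) and at 2 DPA (y axis) for the 42736 genes tested, with the 392 genes higher at 2 DPA in red, the 154 genes higher at 0 DPA in blue and the diagonal of equal level. Red points spread along the left edge, where genes were near 0 at 0 DPA, while most grey points lie along the diagonal.

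Calls were spread over both subgenomes. The A subgenome held 192 upregulated genes (0.914% of 21001 tested) and the D subgenome 199 (0.921% of 21612), with 1 further gene not placed on a chromosome. For the down-regulated genes the counts were 77 in each. On single chromosomes 0.465% to 1.41% of the tested genes rose and 0.136% to 0.553% fell. Genes paired with a *G. barbadense* ortholog rose in 0.972% of cases, against 0.754% of genes without one.

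The largest rises started from low levels at 0 DPA. Gohir.A10G150200 had 4.38 and 6.58 FPKM at 0 DPA and 688 and 758 FPKM at 2 DPA. Its mean rose 132-fold, with a log2 change of 6.82 ± 0.29 (SE, n = 2 libraries a stage, limma adjusted p = 2.33e-05). Fibers held still more, at 1772 and 2693 FPKM, and GhMD17 epidermal cells had under 1 FPKM at 0 DPA and 27.0 and 17.0 FPKM at 2 DPA. Gohir.A03G053800 followed a different course. It was at 0.593 and 0.199 FPKM at 0 DPA and at 73.2 and 63.6 FPKM at 2 DPA, a log2 change of 5.65 ± 0.31 (SE, limma adjusted p = 5.77e-05), and its level in fiber, 71.1 and 53.4 FPKM, overlapped that of the epidermal cells. Gohir.A06G172800 was at 0.313 and 0.31 FPKM at 0 DPA, 45.2 and 76.8 FPKM in 2 DPA epidermal cells and 119 and 200 FPKM in fiber, so that both fiber libraries lay above both epidermal ones.

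Among the 10 genes with the largest rise, chosen by the size of the log2 change (4.59 to 6.82), all 10 kept their call without any single library. Gohir.D04G183200 and Gohir.D13G085100 were above 1 FPKM at 0 DPA already. The former had 19.1 and 27.8 FPKM at 0 DPA and 803 and 619 FPKM at 2 DPA, and the latter 2.59 and 6.27 FPKM and then 118 and 143 FPKM. In contrast, Gohir.D12G078000 (0.952 and 0.331 FPKM, then 49.6 and 42.1 FPKM) started below 1 FPKM in both libraries. The same held for Gohir.A06G177600 (0.126 and 0.395 FPKM, then 38.4 and 31.1 FPKM) and Gohir.D04G072300 (0.226 and 0.526 FPKM, then 32.7 and 41.1 FPKM). Gohir.D03G102800 went from 0.272 and 0.719 FPKM to 30.2 and 39.9 FPKM. Gohir.A01G222600 went from 0.162 and 0.763 FPKM to 32.4 and 40.1 FPKM. The gene with the next ID, Gohir.A01G222700, was upregulated as well.

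The most abundant upregulated genes changed by smaller factors. Gohir.A05G378400 had 800 and 916 FPKM at 0 DPA and 2502 and 2148 FPKM at 2 DPA, a 2.71-fold rise with a log2 change of 1.44 ± 0.24 (SE, limma adjusted p = 0.0207). Its call was lost without any one of the 4 libraries, at adjusted p of 0.0534 to 0.153. Gohir.D08G222000 (501 and 416 FPKM, then 1095 and 1176 FPKM) likewise lost its call without each library, at adjusted p of 0.122 to 0.2. The other 3 of the most abundant genes kept theirs in all 4 reduced fits. Gohir.D10G116200 went from 115 and 120 FPKM to 1749 and 1728 FPKM, a 14.8-fold rise, and reached 3226 and 5389 FPKM in fiber. Gohir.A03G141700 rose from 182 and 238 FPKM to 852 and 849 FPKM, and Gohir.D08G211500 from 79.5 and 51.7 FPKM to 934 and 629 FPKM.

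Among the upregulated genes, 19 were listed at 0 in both 0 DPA libraries, for which no fold is given. Gohir.D10G231380 had 27.6 and 26.8 FPKM at 2 DPA and was listed at 0 in both fiber libraries too. In GhMD17 it was present at 0 DPA, at 20.9 and 20.8 FPKM, and at 56.2 and 36.5 FPKM at 2 DPA. Gohir.A10G056901 (67.6 and 11.9 FPKM at 2 DPA) lost its call without either of the first replicates, at adjusted p of 0.0656 and 0.0517. Gohir.D10G095500 reached 6625 and 33052 FPKM at 2 DPA, which was 0.728% and 3.81% of the summed FPKM of these libraries, and it was listed at 0 in both fiber libraries. In GhMD17 it was at 0 and 4708 FPKM at 2 DPA, and its call in GhTM-1 was lost without each of the 4 libraries, at adjusted p of 0.154 to 0.208.

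**Figure D2:**
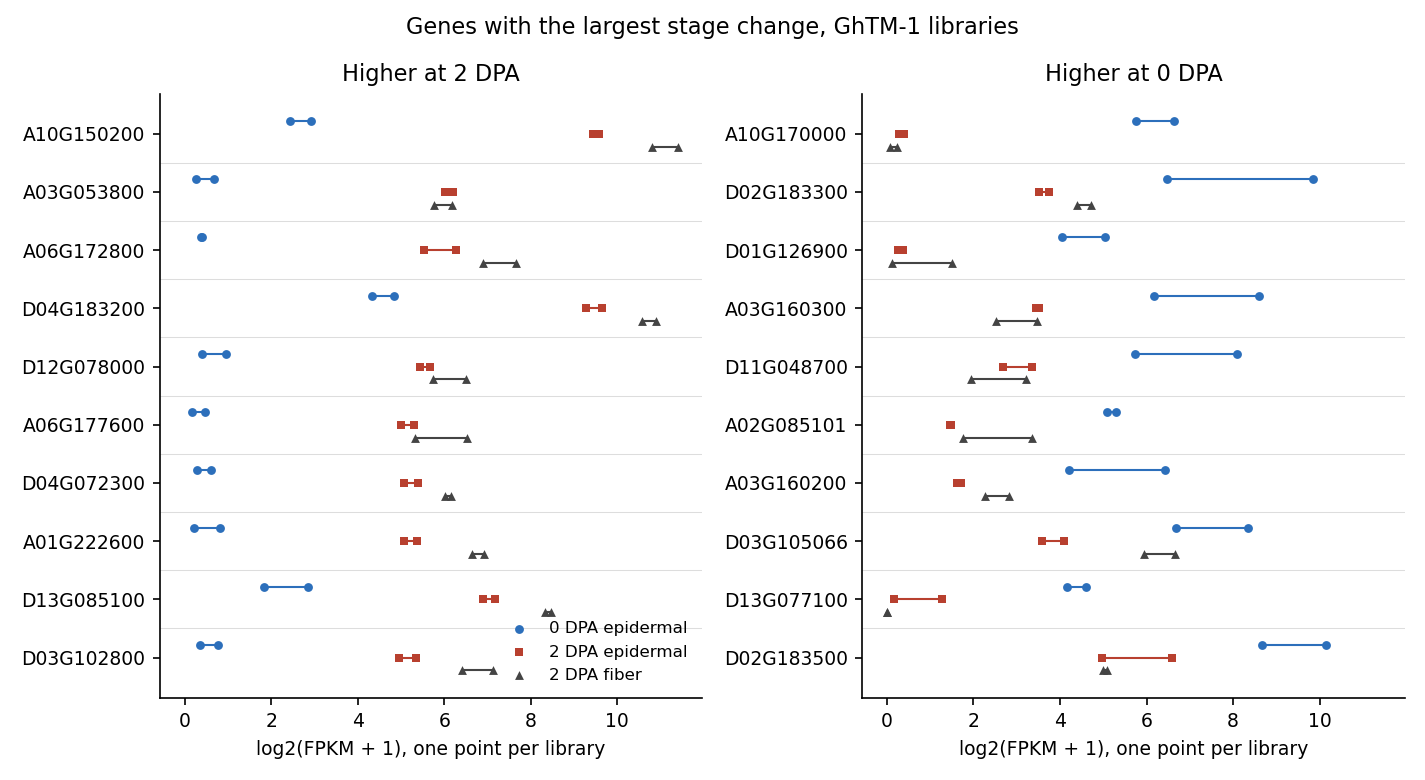
log2(FPKM + 1) of the 10 genes with the largest rise (left) and the largest fall (right), one point per GhTM-1 library and a line joining the 2 replicates, for 0 DPA epidermal (circles), 2 DPA epidermal (squares) and 2 DPA fiber (triangles) cells. For the rising genes the fiber points lie near or to the right of the 2 DPA epidermal points, and for several falling genes the 0 DPA replicates lie far apart.

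The steepest fall was that of Gohir.A10G170000, which had 53.3 and 98.1 FPKM at 0 DPA and 0.206 and 0.311 FPKM at 2 DPA. Its mean was 293-fold lower at 2 DPA, with a log2 change of -5.87 ± 0.36 (SE, n = 2 libraries a stage, limma adjusted p = 8.36e-05). It was also near 0 in fiber, at 0.0524 and 0.184 FPKM, and low in GhMD17 at both stages, between 0.659 and 2.90 FPKM. In Gb3-79 its ortholog was at 164 and 160 FPKM at 0 DPA and 31.6 and 24.4 FPKM at 2 DPA. Gohir.D01G126900 had the same course, from 15.6 and 32.0 FPKM to 0.196 and 0.297 FPKM, with 0 FPKM in both GhMD17 libraries of 0 DPA. Gohir.D13G077100 fell from 16.9 and 23.1 FPKM to 1.40 and 0.129 FPKM and was listed at 0 in both fiber libraries. These 3 genes were the only ones among the 10 with the largest fall (log2 changes of -5.87 to -3.61) that kept their call in all 4 reduced fits.

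A second kind of falling gene was much higher in 0 DPA replicate 1 than in replicate 2. Gohir.D02G183300 had 921 and 87.7 FPKM at 0 DPA and 12.5 and 10.4 FPKM at 2 DPA, a log2 change of -4.52 ± 0.79 (SE, limma adjusted p = 0.024). Gohir.D02G183500 had 1123 and 403 FPKM, then 30.4 and 95.6 FPKM. The genes with consecutive IDs Gohir.A03G160200 (85.5 and 17.5 FPKM, then 2.27 and 2.05 FPKM) and Gohir.A03G160300 (385 and 71.4 FPKM, then 9.88 and 10.4 FPKM) moved together, and whether reads of related genes can be told apart was not tested. Gohir.D11G048700 (273 and 52.2 FPKM, then 5.45 and 9.24 FPKM) and Gohir.D03G105066 (322 and 101 FPKM, then 11 and 16.1 FPKM) showed the same spread. Of the 154 down-regulated genes, 18 had 0 DPA replicates more than 3-fold apart, with replicate 1 the higher in 15, against 6 of the 392 upregulated genes with such a gap at 2 DPA. Of the 18, more were called without a 0 DPA library than without a 2 DPA library. A fit without a 0 DPA library leaves the gap between these replicates out of the spread. A call kept in such a fit is therefore not support. All 6 genes named here lost their call without 2 DPA replicate 1, at adjusted p of 0.0676 to 0.175. Without 2 DPA replicate 2, 4 of them did, at adjusted p of 0.0633 to 0.101, and Gohir.D02G183500 and Gohir.D03G105066 kept theirs. Gohir.D11G048700 also lost its call without 0 DPA replicate 1 (adjusted p = 0.0563) and Gohir.D02G183500 did so as well (adjusted p = 0.0603).

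The most abundant falling genes belonged to this kind. Gohir.A09G040900 had 1573 and 441 FPKM at 0 DPA and 84.4 and 84.1 FPKM at 2 DPA, Gohir.A11G045200 had 1043 and 347 FPKM and then 68.9 and 65.0 FPKM, and Gohir.A10G240900 had 880 and 244 FPKM and then 36.2 and 45.4 FPKM. Without 0 DPA replicate 1 the first and the third lost their call, at adjusted p of 0.084 and 0.157, and without 2 DPA replicate 1 all 3 did, at adjusted p of 0.0899 to 0.204. Without 2 DPA replicate 2 all 3 lost it as well, at adjusted p of 0.0614 to 0.0905. All 3 genes were expressed in GhMD17 epidermal cells at both stages, at 75.5 FPKM or more in each library. Gohir.A02G085101 (38.5 and 33.1 FPKM, then 1.79 and 1.74 FPKM), whose replicates lay close together, lost its call without any one library, at adjusted p of 0.1 to 0.176.

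In 21 of the down-regulated genes both 2 DPA libraries were listed at 0. Gohir.D02G178400 had 22.8 and 25.2 FPKM at 0 DPA and 0 at 2 DPA and in fiber, and kept its call without each library. In GhMD17 it was expressed at both stages, at 79.2 and 37.5 FPKM and then 43.1 and 21.9 FPKM. Gohir.D10G081201 (22 and 117 FPKM at 0 DPA) and Gohir.D12G073901 (26.5 and 43.6 FPKM) lost their calls in each of the 4 reduced fits, and each was at 0 in one fiber library and at 20.2 or 17.6 FPKM in the other.

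The level of the called genes was next read in all libraries. Over the 392 upregulated genes the median FPKM was 2.46 and 2.49 in the 0 DPA and 16.7 and 15.2 in the 2 DPA epidermal libraries of GhTM-1, values which the choice of genes fixed. In GhTM-1 fiber the median was 24.5 and 25.7 FPKM. In GhMD17 the same genes had medians of 1.45 and 1.57 FPKM at 0 DPA and 3.02 and 3.81 FPKM at 2 DPA. The 311 that have a Gb3-79 ortholog had medians there of 4.39 and 6.44 FPKM at 0 DPA, 8.68 and 9.02 FPKM at 2 DPA and 22.6 and 19.8 FPKM in fiber. In each line the medians of the upregulated genes were thus higher at 2 DPA, and in both wild types they were highest in fiber.

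For the 154 down-regulated genes the medians in GhTM-1 were 18.1 and 20.0 FPKM at 0 DPA, 2.61 and 3.08 FPKM at 2 DPA and 2.36 and 2.05 FPKM in fiber. GhMD17 epidermal cells had medians of 7.41 and 9.03 FPKM at 0 DPA and 5.49 and 5.79 FPKM at 2 DPA. In Gb3-79 the 119 orthologs had 16.1 and 16.4 FPKM at 0 DPA, 9.72 and 10.5 FPKM at 2 DPA and 3.64 and 3.19 FPKM in fiber. Within each line the order of the groups was the reverse of that of the upregulated genes, with fiber lowest in each wild type.

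**Figure D3:**
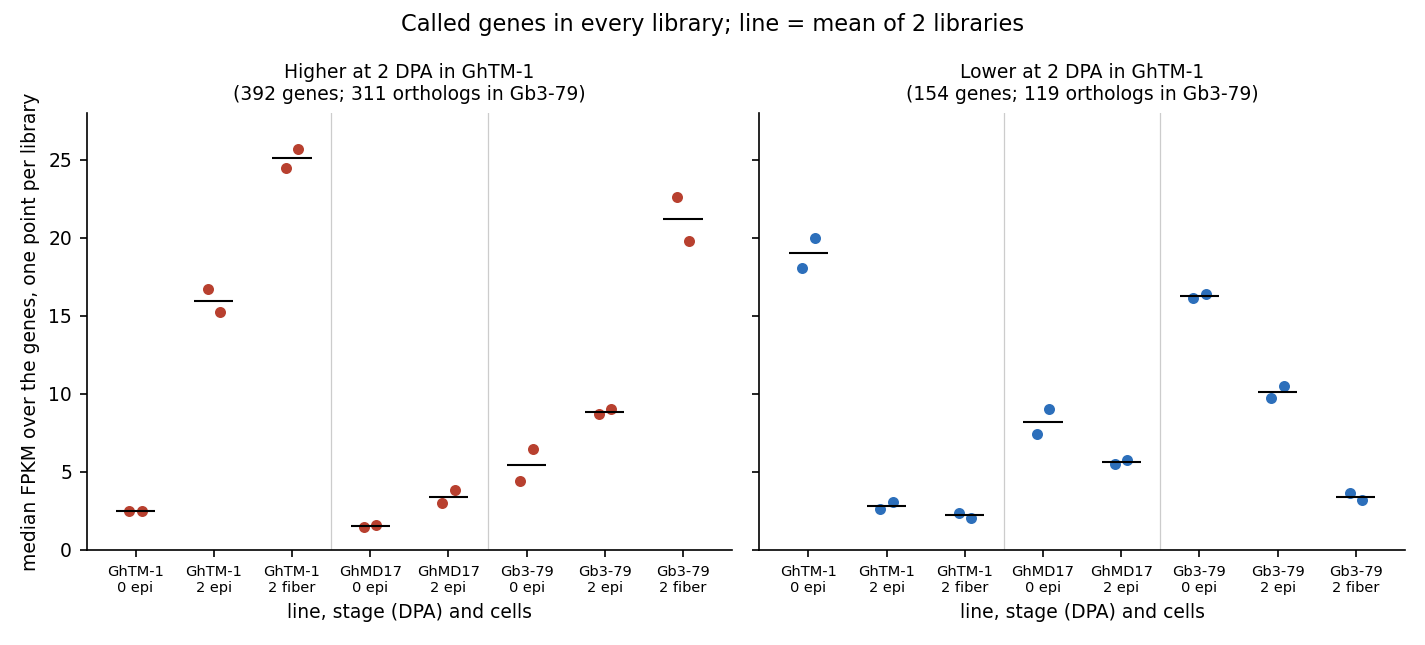
Median FPKM over the genes called in GhTM-1, one point per library and a line at the mean of the 2 libraries, for genes higher (left) and lower (right) at 2 DPA. The fiber libraries of both wild types lie highest in the left panel (24.5 and 25.7 FPKM in GhTM-1) and in the right panel they lie lowest within each wild type (2.36 and 2.05 FPKM in GhTM-1, 3.64 and 3.19 FPKM in Gb3-79).

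The level of each upregulated gene was also set against its fiber level, as a description, since the genes were chosen for being lower at 0 than at 2 DPA. Over the 382 upregulated genes with a mean above 1 FPKM in fiber, the median was 9.22% and 8.68% of the GhTM-1 fiber level in the 0 DPA libraries and 54.9% and 51.5% in the 2 DPA epidermal libraries. At 2 DPA the quartiles over genes were 44.1% and 75.3% in replicate 1 and 42.2% and 65.1% in replicate 2. Remains of cut fibers among the 2 DPA cells were not measured.

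The Gb3-79 libraries did not enter the choice of these genes. Those of GhMD17 were outside the contrast but entered the filter and the estimate of the spread. They are therefore not independent of that choice. In GhMD17, 275 of the 392 upregulated genes (70.2%) had both 2 DPA libraries above both 0 DPA libraries and 20 (5.1%) had both below, against 18.6% and 20.2% of all genes tested. Of the 311 orthologs, 173 (55.6%) were higher and 12 (3.86%) lower without overlap at 2 DPA in Gb3-79, against 19.4% and 18% of the 31990 orthologs tested. Down-regulated genes were lower without overlap at 2 DPA in 66 of 154 cases (42.9%) in GhMD17 and in 53 of 119 (44.5%) in Gb3-79, and higher in 29 (18.8%) and 15 (12.6%). The changes were smaller there than in GhTM-1, where the genes were chosen. The median log2 change of the upregulated genes was 2.02 in GhTM-1, 0.55 in GhMD17 and, for their orthologs, 0.52 in Gb3-79. For the down-regulated genes these medians were -2.08, -0.30 and -0.32.

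Lists were next drawn without any GhTM-1 library. The GhMD17 libraries entered the spread in the fit for these lists and in the fit for the GhTM-1 calls. Lists and calls are therefore not fully independent. In Gb3-79, 1010 of 32943 orthologs (3.07%) were higher and 4467 (13.6%) were lower in fiber than in 2 DPA epidermal cells, at the same limits. Of the 940 fiber-high orthologs that were tested in GhTM-1, 155 (16.5%) were higher at 2 DPA in GhTM-1 epidermal cells and 5 (0.532%) were lower, against 0.917% and 0.36% of all genes. Their median log2 change was 0.54, and 747 of the 940 were positive. Conversely, of the 295 upregulated genes that were tested in Gb3-79, 155 (52.5%) were fiber-high and 18 (6.10%) fiber-low, while of 110 down-regulated genes 5 (4.55%) were fiber-high and 43 (39.1%) fiber-low. The whole fiber-low list had a median log2 change of -0.16 in GhTM-1 over 4236 genes, against -0.08 for all genes tested. Of the 4236, 18 (0.425%) were upregulated and 43 (1.02%) down-regulated, against 0.917% and 0.36% of all genes. Relative to GhTM-1 fiber, the 917 fiber-high orthologs with a mean above 1 FPKM there stood at a median of 36.4% and 41.4% in the 0 DPA and 57.9% and 62.1% in the 2 DPA epidermal libraries.

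The stage lists of the other lines were read against the 0.917% of all genes tested that were upregulated and the 0.36% that were down-regulated. Of 151 orthologs (0.458% of 32943) that rose from 0 to 2 DPA in GhMD17, 30 (19.9%) were upregulated and 3 (1.99%) down-regulated in GhTM-1, with a median log2 change of 0.68. Of 103 orthologs (0.313%) that fell in GhMD17, 0 were upregulated and 11 (10.7%) were down-regulated in GhTM-1, and their median was -0.78. In Gb3-79, 91 orthologs (0.276%) rose and 58 (0.176%) fell. Of the 75 of the former that were tested in GhTM-1, 19 (25.3%) were upregulated and 2 (2.67%) down-regulated, with a median of 0.28 and 44 positive, and of the 47 of the latter 0 were upregulated and 10 (21.3%) down-regulated, with a median of -0.65.

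**Figure D4:**
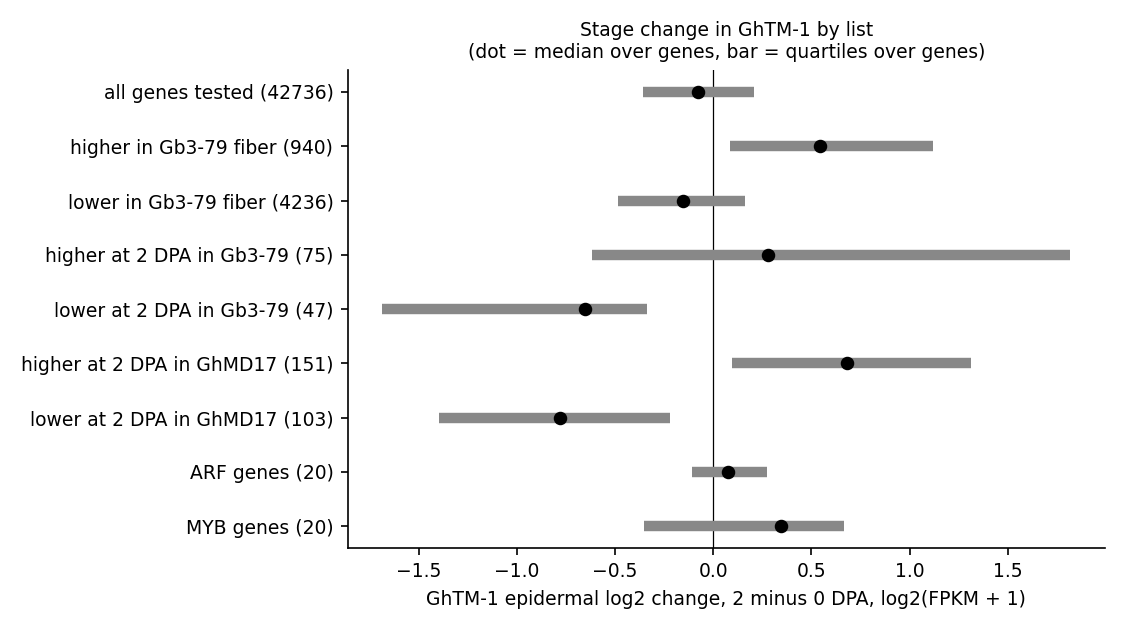
Log2 change of GhTM-1 epidermal cells from 0 to 2 DPA over the genes of each list, with the median as a dot, the quartiles over genes as a bar and the number of genes tested in parentheses. The medians of the fiber-high list from Gb3-79 (0.54) and of the genes rising in GhMD17 (0.68) lie to the right of that of all genes (-0.08), and those of the genes falling in Gb3-79 (-0.65) and GhMD17 (-0.78) to the left.

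A smaller group of genes moved against their class, and the following examples were chosen after their values were seen. Among the 18 upregulated genes that were lower in Gb3-79 fiber, the medians were 8.06 and 8.23 FPKM at 0 DPA and 38.9 and 38.2 FPKM at 2 DPA in GhTM-1 epidermal cells but 5.92 and 5.50 FPKM in GhTM-1 fiber. Gohir.A12G138200 belonged to them, with 2.67 and 3.56 FPKM at 0 DPA, 16 and 21.5 FPKM at 2 DPA and 3.80 and 6.06 FPKM in fiber. Its log2 change was 2.26 ± 0.28 (SE, limma adjusted p = 0.00511), and it kept its call in all 4 reduced fits. In Gohir.A06G076300 the epidermal level went from 4.93 and 7.20 FPKM to 36.5 and 21.9 FPKM and fiber held 7.58 and 4.94 FPKM. That call was lost without 0 DPA replicate 1 (adjusted p = 0.106) and without 2 DPA replicate 1 (adjusted p = 0.125). Both genes also had higher levels at 2 than at 0 DPA in both GhMD17 libraries, at 12 and 12.8 FPKM against 3.60 and 5.08 FPKM for the former and 38.4 and 41.3 FPKM against 8.22 and 12.8 FPKM for the latter. Gohir.A03G053800, also among the 18, was not low in GhTM-1 fiber. It had 71.1 and 53.4 FPKM there, against 73.2 and 63.6 FPKM in 2 DPA epidermal cells.

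On the other side were the 5 down-regulated genes that were higher in Gb3-79 fiber. In GhTM-1, 4 of them were lower in both fiber libraries than in both 2 DPA epidermal libraries, and the exception was Gohir.D12G229200, with 33.7 and 27.3 FPKM at 0 DPA, 10.5 and 13.04 FPKM at 2 DPA and 25.2 and 21.0 FPKM in fiber. The call of this exception was lost in every reduced fit. Gohir.D12G059800 had 131 and 136 FPKM at 0 DPA, 57.0 and 59.0 FPKM at 2 DPA and 10.3 and 11.7 FPKM in GhTM-1 fiber, against 1458 and 999 FPKM in Gb3-79 fiber. Its call was kept without 2 DPA replicate 2 but lost without each of the other 3 libraries, at adjusted p of 0.0577 to 0.0804. For Gohir.D08G242800 the values were 13.8 and 11 FPKM, then 2.15 and 2.22 FPKM, and 0.807 and 1.04 FPKM in GhTM-1 fiber, against 107 and 98.7 FPKM in Gb3-79 fiber, and its call was lost without either first replicate at adjusted p of 0.0772 and 0.0721.

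Whether the stage change of GhTM-1 differed from that of the other lines was tested as an interaction. Against GhMD17, 77 of 42736 genes (0.18%) differed at an adjusted p under 0.05, 44 (0.103%) with a higher and 33 (0.0772%) with a lower change in GhTM-1. The test recovered 37 of the 392 upregulated and 13 of the 154 down-regulated genes, and in all of these the change in GhTM-1 was the larger in its direction, which follows in part from their choice on the same libraries. Against Gb3-79, 107 of 33789 orthologs (0.317%) differed, 58 (0.172%) with a higher and 49 (0.145%) with a lower change in GhTM-1, among them 48 of 311 upregulated and 15 of 119 down-regulated genes. The change in GhTM-1 was the larger in its direction in all of these 48 and in 14 of the 15, and the exception, Gohir.A12G048100, named here after its values were seen, had a log2 change of -2.29 in GhTM-1 and of -5.16 in Gb3-79. For the remaining called genes a difference was not shown. Both counts changed when single GhTM-1 epidermal libraries were left out. Such fits leave a single library in a group, so the part of that library was not separated from the loss of data.

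Among the named genes, Gohir.A03G053800 and Gohir.A10G170000 passed both tests also without any single epidermal library of the lines compared. Gohir.A03G053800 was at 1.52 to 5.83 FPKM in GhMD17 and at 0.0761 to 2.96 FPKM in Gb3-79 epidermal cells. In both lines it was also higher at 2 DPA without overlap, with log2 changes of 0.853 in GhMD17 and 1.41 in Gb3-79. The stage change in GhTM-1 was larger by 4.79 ± 0.43 than in GhMD17 and by 4.24 ± 0.48 than in Gb3-79 on the log2 scale (SE, limma adjusted p = 0.00429 and 0.00192). Gohir.A10G170000 differed by -6.74 ± 0.50 from GhMD17 (adjusted p = 0.00334), where it was already below 1 FPKM at 0 DPA. Gohir.A10G150200 had, in Gb3-79, 2.61 and 1.93 FPKM at 0 DPA and 2.95 and 4.25 FPKM at 2 DPA, and its stage change differed from that line by 6.34 ± 0.39 (limma adjusted p = 1.37e-05). Gohir.A06G172800 was at 0.171 FPKM or less in each of the 6 Gb3-79 libraries, fiber included.

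The ARF genes did not pass the test between the stages. By limma 0 of 20 were called, against 0.917% and 0.36% of all genes, the lowest adjusted p was 0.222, and 2 had an unadjusted p under 0.05. With a median log2 change of 0.08 and 12 positive values, they ranged from -0.61 to 0.99 at a median SE of 0.27. The list was chosen by the study on these samples for changes in fiber, so it is not independent evidence. ARF5, known in Arabidopsis as MONOPTEROS, a transcriptional activator of vascular and embryo patterning, had the highest value in its A copy. Gohir.A01G112300 was at 3.38 and 5.69 FPKM at 0 DPA and at 8.22 and 11.5 FPKM at 2 DPA, a log2 change of 0.99 ± 0.31 (SE, limma adjusted p = 0.222). Its libraries did not overlap between the stages, whereas those of the D copy, Gohir.D01G099100, did, at 7.21 and 13.8 FPKM and then 10.2 and 10.7 FPKM.

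The lowest values among ARFs were those of ARF16, a target of miR160 in Arabidopsis. Gohir.A10G205300 had 18.4 and 23.7 FPKM at 0 DPA and 10.9 and 16.2 FPKM at 2 DPA, a log2 change of -0.61 ± 0.27 (SE, limma adjusted p = 0.396), and Gohir.D10G213600 had 17.3 and 23.7 FPKM and then 14.0 and 16.9 FPKM. ARF2, a repressor in Arabidopsis, had the highest FPKM of the family. Its copy Gohir.A11G038500 was at 32.1 and 34.9 FPKM at 0 DPA and 33.3 and 49.5 FPKM at 2 DPA, and all 5 ARF2 genes lay between -0.16 and 0.34 on the log2 scale of change. ARF6 and ARF8, activators that in Arabidopsis are cut by miR167, had changes between -0.02 and 0.45 over 4 genes. ARF19a (Gohir.A05G408200) was at 6.87 and 14.2 FPKM and then at 11 and 13.8 FPKM, overlapping between the stages.

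Of the 20 MYB genes 0 were called by limma, with a lowest adjusted p of 0.0873, and 5 had an unadjusted p under 0.05. Their median log2 change was 0.34, and 14 were positive. The study chose these genes partly on the same samples. Without 0 DPA replicate 1 the median was 0.00295, so it rested on that library. The highest change was that of MYB16 (Gohir.A10G154700), which in Arabidopsis promotes cuticle formation. It had 5.64 and 10.2 FPKM at 0 DPA and 17.7 and 19.0 FPKM at 2 DPA without overlap, a log2 change of 1.16 ± 0.27 (SE, limma adjusted p = 0.0873), and 2.59 and 2.70 FPKM in fiber. Another MYB16 gene, Gohir.A05G368200, had 10.7 and 14.5 FPKM and then 19.0 and 26.6 FPKM, while Gohir.D10G111200 overlapped between the stages.

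MYB106, named GhMYB25 in cotton and required for normal fiber initiation, had the highest FPKM of the list. Its genes Gohir.D04G191100 and Gohir.1Z049716 were at 211 and 271 FPKM and at 133 and 163 FPKM at 0 DPA. At 2 DPA the former had 157 and 154 FPKM and the latter 116 and 115 FPKM, each below both 0 DPA values, with log2 changes of -0.62 ± 0.29 and -0.35 ± 0.20 (SE, limma adjusted p = 0.419 and 0.53). In GhMD17 both were at 0 to 1.30 FPKM at 0 DPA and at 8.27 to 14.4 FPKM at 2 DPA. The stage change differed between the lines by -3.72 ± 0.40 and -3.39 ± 0.28 on the log2 scale (SE, limma adjusted p = 0.0108 and 0.00334), the only ARF or MYB genes to pass that test.

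Of the other MYB genes, MYB66 is known in Arabidopsis as WEREWOLF, which sets cell fate in the root epidermis. Its GhMYB109 copy Gohir.A05G359100 was at 1.67 and 4.37 FPKM and then 6.05 and 7.82 FPKM, and its GhMYB2 copies were level, with Gohir.A08G168600 at 17.9 and 19.6 FPKM and then 17.7 and 21.0 FPKM. MYB96 (Gohir.D04G049200), an activator of wax synthesis in Arabidopsis, had 0.876 and 2.03 FPKM and then 2.35 and 6.20 FPKM. The 4 MYB4 genes, which in Arabidopsis include a repressor of phenylpropanoid synthesis, had changes between -0.38 and 0.67. The lowest change, -1.23 ± 0.45 (SE, limma adjusted p = 0.299), was that of the MYB6 gene Gohir.A13G120500, at 6.27 and 2.99 FPKM and then 1.70 and 0.965 FPKM. A p above the limit does not show that these genes did not change, since with 2 libraries a stage the SE of the ARF and MYB genes was 0.20 to 0.59.

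**Figure D5:**
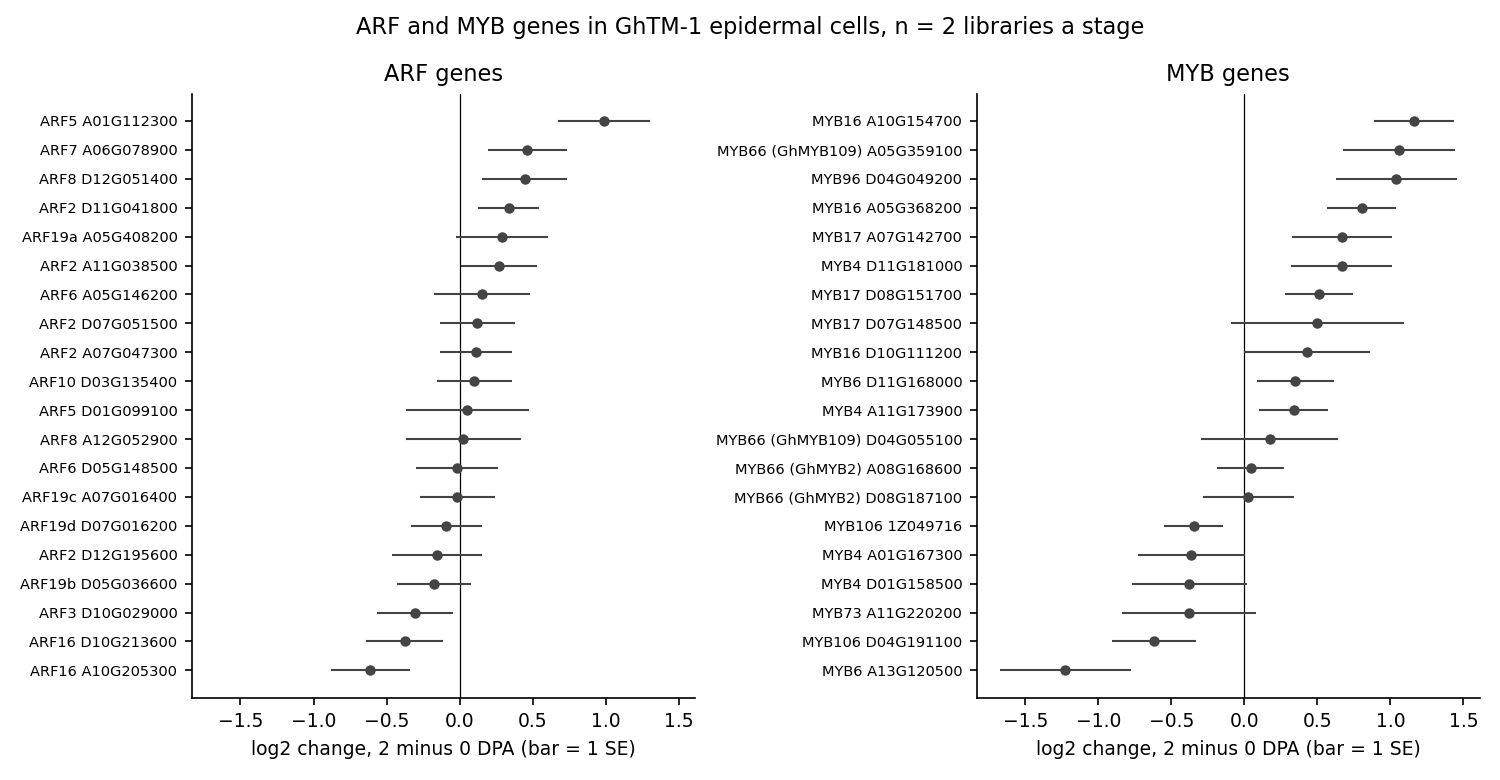
Log2 change from 0 to 2 DPA in GhTM-1 epidermal cells for 20 ARF genes (left) and 20 MYB genes (right), ordered by value, with a bar of 1 SE from limma (n = 2 libraries a stage). None passed the test, with the highest values at 0.99 for an ARF5 gene and 1.16 for a MYB16 gene.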

How the data were processed

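LCM mRNA-seq libraries were analysed from the FPKM tables that the authors deposited. Per the study's methods, reads were mapped with Tophat (TopHat2 2.1.1 in the submitters' processing notes, with SAMtools 1.5), to the *G. hirsutum* genome for GhTM-1 and GhMD17 and to the *G. barbadense* genome for Gb3-79, uniquely mapped reads were kept, and the authors computed FPKM per library with Cufflinks 2.2.1. Counts and mapped reads per library were not used here, so the depth behind a value was not examined. The study lists sequencing statistics of its samples in its supplement.

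Genes with over 1 FPKM in at least 2 of the 10 *G. hirsutum* libraries were tested on log2(FPKM + 1), a scale that understates changes of low genes. limma 3.58.1 in R 4.3.3 was fitted on the means of 5 groups, with a variance trend, two-sided contrasts and Benjamini-Hochberg adjustment over all genes tested. Calls needed an adjusted p under 0.05, a ratio of mean FPKM over 2 and a mean over 1 FPKM. Interactions with Gb3-79 used the 16 libraries of the ortholog table, and lists from Gb3-79 and GhMD17 its 10 libraries without GhTM-1. Figures were made in Python 3.11.15 with matplotlib 3.10.9. The procedure was tested on simulated data.

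Named genes were, in each direction, the 10 with the largest change, the 5 with the highest FPKM (both above 0 in all 4 libraries and without overlap between stages) and the 3 with the largest change among those listed at 0 at a stage. The 3 genes with the largest difference in each direction of each interaction and all ARF and MYB genes were added. Members and lists were chosen with earlier results of these data known. Alternatives were the pseudocount, the filter, the call rule, the scaling, the libraries in the fit, the variance trend, a replicate block and leaving out libraries. The authors' table of orthologs served only for pairing. Gene names, positions and sequences were not used here, because 0 of the Gohir IDs matched the reference gene table.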

Additional observations from a re-analysis of the deposited data

Results flagged for a closer look

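The following genes stood out because the change from 0 to 2 DPA differed between GhTM-1 and another line, by the limma interaction at an adjusted p under 0.05. Values are differences in log2 change, GhTM-1 minus the other line, and the genes named above for a large change in GhTM-1 were chosen on the same libraries.

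Against GhMD17, upregulated genes with a larger rise in GhTM-1 were Gohir.A03G053800 (4.79), Gohir.A06G172800 (4.28), Gohir.D12G078000 (3.86), Gohir.D10G231380 (3.73), Gohir.A06G177600 (3.63), Gohir.D04G072300 (3.63), Gohir.D08G211500 (3.37), Gohir.A10G150200 (3.06) and Gohir.A01G222600 (2.91). Down-regulated genes with a lower change in GhTM-1 were Gohir.A10G170000 (-6.74), Gohir.D01G126900 (-4.76), Gohir.D13G077100 (-4.03), Gohir.D08G242800 (-4.02) and Gohir.D02G178400 (-3.84). Of these only Gohir.D02G178400 had a negative log2 change in GhMD17, at -0.81. In the order given, the others had positive ones there, at 0.88, 0.53, 0.37 and 1.96. The MYB106 genes Gohir.D04G191100 and Gohir.1Z049716 differed by -3.72 and -3.39. Gohir.A10G147100 differed by -7.99, with 34.3 and 9.65 FPKM at 0 DPA and 0 at 2 DPA in GhTM-1 but 0 at 0 DPA and 8.54 and 17.0 FPKM at 2 DPA in GhMD17. Gohir.D11G162475 differed by -7.76, as it was listed at 0 at 0 DPA and had 73.2 and 75.4 FPKM at 2 DPA in GhMD17, while in GhTM-1 it had 13.3 and 87.2 FPKM at 0 DPA and 11.5 and 11.2 FPKM at 2 DPA. Gohir.A04G053221 differed by 5.04, with 0 at 0 DPA and 18.3 and 8.94 FPKM at 2 DPA in GhTM-1. Gohir.D13G000580 differed by 4.60 without any signal in GhTM-1, since it was listed at 0 in all 6 GhTM-1 libraries and fell from 12.1 and 43.8 FPKM to 0 in GhMD17. Of these 20 genes, 5 passed the test without each of the 8 epidermal libraries in turn, namely Gohir.A03G053800, Gohir.D10G231380, Gohir.A10G170000, Gohir.A10G147100 and Gohir.1Z049716.

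Against Gb3-79, higher changes in GhTM-1 were found for Gohir.A10G150200 (6.34), Gohir.A06G172800 (5.65), Gohir.A03G053800 (4.24), Gohir.D12G078000 (4.21), Gohir.A06G177600 (3.81), Gohir.D10G231380 (3.75), Gohir.D13G044100 (3.33), Gohir.D08G211500 (2.68), Gohir.D04G072300 (2.19) and Gohir.A03G141700 (2.09). Lower changes were found for Gohir.D11G048700 (-4.65), Gohir.D02G183500 (-4.12), Gohir.A03G160200 (-3.96), Gohir.A10G170000 (-3.36), Gohir.D12G059800 (-2.34) and Gohir.D08G242800 (-2.27). Gohir.D02G178400 differed by -10.15, since it was lost in GhTM-1 but rose from 0 to 10.7 and 177 FPKM in Gb3-79. Gohir.A03G194800 differed by -6.37 and Gohir.D02G216000 by -6.05. In GhTM-1 neither passed the test between stages, and in Gb3-79 they rose to 8.91 and 20.4 FPKM and to 31.4 and 29.1 FPKM. Of these 19 genes, 8 passed without each of the 8 epidermal libraries of both lines in turn. Gb3-79 reads were mapped to another genome, and the part of mapping in these differences was not tested.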

How the results depend on the processing

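The counts of genes higher and lower at 2 DPA were 392 and 154. They were 154 and 39 with the 6 GhTM-1 libraries alone, 28 and 9 with the 4 epidermal libraries, and 911 and 694 (2.13% and 1.62% of genes tested) at an unadjusted P under 0.01. A pseudocount of 0.1 gave 285 and 93. Leaving out a library gave 118 to 324 genes higher and 30 to 177 genes lower at 2 DPA. The fits without each GhTM-1 fiber or GhMD17 library, and a fit on genes above 0 in all 4 epidermal libraries (338 and 118), were chosen after seeing the data. Scaling by the median ratio gave 419 and 139 and moved the median change of all genes from -0.08 to -0.04.

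The count of genes whose stage change differed from GhMD17 was 77. It was 39 with a pseudocount of 0.1, 51 with a filter at 5 FPKM and 19 to 62 without single libraries. Against Gb3-79 the 107 genes became 53 with a pseudocount of 0.1 and 35 to 189 without single libraries. With a pseudocount of 0.1 the median log2 change was 0.65 for the fiber-high orthologs and -0.99 for orthologs lower at 2 DPA in Gb3-79. Without single GhTM-1 epidermal libraries the medians were 0.47 to 0.63 for the fiber-high and -0.22 to -0.09 for the fiber-low list. Those of orthologs higher and lower at 2 DPA were 0.24 to 0.58 and -0.85 to -0.74 for Gb3-79 and 0.59 to 0.83 and -1.0 to -0.42 for GhMD17. The ARF genes ranged from -0.03 to 0.18 and the MYB genes from 0.00295 to 0.51.

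The 34 genes named by size kept their direction in all 573 refits, several of which left the log2 change as it was. These genes were chosen without overlap between the stages, so leaving out a library could not reverse them, and the kept direction is not support. Their calls were lost most often with the 4 epidermal libraries (18 of 34), with the 6 GhTM-1 libraries and without 2 DPA replicate 1 (16 of 34 each). With the replicate number as a block, 405 genes were higher and 182 lower, 367 and 143 of them shared with the fit without the block, and all 34 named genes kept their call. The labels do not say that the numbers pair the samples, and deviations of same-numbered epidermal libraries correlated at 0.11 over 2 pairs. The depth per library was not used here and counting error was not estimated, and 2 libraries a stage limit the precision.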
